A study of Mus musculus with 23 samples.

Results

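The genes described here are 38 genes of epithelial identity and of the junctions between epithelial cells, listed by symbol and looked up among the 18682 features of the deposited count table. All 38 were found, and all 38 were among the 17708 features that passed the filter on low counts. They comprise a surface adhesion gene (Epcam), E-cadherin (Cdh1), 4 keratins, 8 tight junction genes, 5 desmosome genes, 8 regulators of transcription or splicing, 5 membrane proteases and inhibitors and 6 genes of polarity and trafficking. RNA was sequenced from the endometrium of 23 uterine horns of female C57BL/6 mice, 6 SHAM, 5 PBS, 6 HG and 6 HG+ORG. Ethanol had damaged the endometrium. PBS (saline), HG (a hydrogel) or HG+ORG (the hydrogel with human endometrial organoids) was injected after 4 days, and tissue was taken 2 weeks after that. The sources used here do not give what was done to the SHAM horns, and no allele or transgene is named for any group. The study calls its mice immunocompetent, and reads of human organoid cells were not told apart from mouse reads in an alignment to the mouse genome. The labels do not tie horns to animals. Horns of the same animal may therefore be counted as separate replicates, and p-values may be too small.

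Epithelial cells hold together through layers of junctions. Claudins, occludin and their scaffold proteins seal the space between cells at the tight junction, E-cadherin ties neighbouring cells through the adherens junction, and desmosomes anchor the keratin network at the membrane. Regulators such as Grhl2, Ovol1, Ovol2, Elf3 and Ehf keep these genes on, Esrp1 and Esrp2 set the epithelial form of many spliced messages, and the repressors Zeb1, Zeb2, Snai1 and Snai2 switch them off during a change to the mesenchymal state. In the uterus these genes mark the luminal lining and the glands, while stroma, muscle, vessels and immune cells have little or none of most of them.

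Promoter sequence could be matched to 22 of the 38 genes, in 26 windows of 250 bases upstream of the start site, from RefSeq on mouse build GRCm38.p6. The E-box CACCTG, the site read by the Zeb and Snail repressors, was searched on both strands (CAGGTG on the other). It stood in 16 of the 26 windows, 61.5%, and in 14 of the 22 genes, against 17.2% of all 32851 windows of that length. A match is a run of letters and was not tested for binding, and windows of 1 gene can overlap. The 8-base core AACCGGTT of the Grhl family was in 0 of the 26 windows (0.1% of all) and the ETS core CCGGAAGT in 4 (15.4%, against 2.9% of all). Upstream windows of 4 genes are shown, each 5′ to 3′ on the gene's own strand with the E-boxes in capitals. Epcam is shown as the adhesion gene of the set (chr17:87635729-87635978, plus strand), Ap1m2 as the gene that stayed closest to the rest (chr9:21312334-21312583, minus strand), and Cldn4 and Elf3 as genes that parted from the rest in some horns (chr5:134946935-134947184 and chr1:135258473-135258722, both minus strand).
Epcam: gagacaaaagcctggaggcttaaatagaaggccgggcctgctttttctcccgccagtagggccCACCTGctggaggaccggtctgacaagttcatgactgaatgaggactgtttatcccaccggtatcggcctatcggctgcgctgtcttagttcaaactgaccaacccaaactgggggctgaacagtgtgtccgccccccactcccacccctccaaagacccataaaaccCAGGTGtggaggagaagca
Ap1m2: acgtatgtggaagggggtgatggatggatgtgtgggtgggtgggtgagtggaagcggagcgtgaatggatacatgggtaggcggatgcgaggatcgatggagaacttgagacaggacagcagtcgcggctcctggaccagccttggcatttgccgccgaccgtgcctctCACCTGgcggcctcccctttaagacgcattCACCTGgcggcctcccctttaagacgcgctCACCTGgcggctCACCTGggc
Cldn4: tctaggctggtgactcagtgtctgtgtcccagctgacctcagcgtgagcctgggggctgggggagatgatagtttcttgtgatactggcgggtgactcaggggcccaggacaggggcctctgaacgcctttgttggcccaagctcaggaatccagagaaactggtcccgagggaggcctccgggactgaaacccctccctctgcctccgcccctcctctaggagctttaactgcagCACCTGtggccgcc
Elf3: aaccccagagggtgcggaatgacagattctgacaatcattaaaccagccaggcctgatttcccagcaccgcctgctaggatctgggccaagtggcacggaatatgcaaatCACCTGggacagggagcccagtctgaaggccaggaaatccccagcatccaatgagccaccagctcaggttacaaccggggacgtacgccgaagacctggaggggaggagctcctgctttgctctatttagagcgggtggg
Epcam held 2 E-boxes, Ap1m2 held 4, and Cldn4 and Elf3 held 1 each. Cldn4 had its E-box 14 bases before the start site and Elf3 140 bases before it.

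The tissue carried the markers of uterine epithelium in all groups. Levels are log2 CPM (counts scaled to library size after TMM, a normalization between libraries, on a log2 scale). The mean of 6 luminal epithelium genes was between 6.66 and 8.96 in the 22 horns other than HG+ORG replicate 18 and 4.53 in that horn. Of 7 gland genes, 4 were tested, and the gland genes Spink1, Prss28 and Prss29 were not. Stroma and muscle varied far more: the mean of 11 stroma genes ran from 1.02 to 7.95 over those 22 horns, and that of 10 smooth muscle genes from -0.13 to 7.38. The squamous genes Krt5 and Trp63 were at most 2.76 and 2.06. SHAM replicates 5 and 6 were the most alike of 55 pairs of libraries within groups, with a mean chi-square of 2.9 per feature against 17.9 for the next pair, and their levels of the 38 genes differed by at most 0.23.

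Scaled to exon length, the simple-epithelium genes led the order. RPKM here are counts scaled to exon length and to library size after TMM. The median over 22 horns (without HG+ORG replicate 18) was 617 RPKM for Krt19, a keratin of simple epithelia. Epcam was at 599.9, Krt8 at 507, the claudin Cldn3 at 404 and Krt18 at 373. These 5 overlapped widely: Krt19 ran from 93.5 to 1483 and Epcam from 252 to 1257. Cldn7 (323), Cdh1 (240), Elf3 (214), Spint2 (200.5) and Mal2 (168) followed. At the low end were Grhl2 (11.3), the endosome motor Myo5b (6.73), Ovol2 (6.23) and Ovol1 (2.51). Exon lengths were those of GENCODE M21 on GRCm38, while the counts were made on GRCm39.

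On the TMM-scaled levels, the clearest separation between groups was that of Esrp1, the splicing factor of epithelial cells. Esrp1 was between 7.75 and 8.04 log2 CPM in the 6 SHAM horns (median 7.84). In PBS replicates 7 to 11 it was 7.51, 7.88, 7.81, 7.51 and 7.72. The HG horns ran from 6.99 to 7.63 with a median of 7.35, and HG+ORG replicates 19 to 23 were at 7.78, 7.94, 7.85, 8.06 and 7.75, with replicate 18 at 4.46. On these levels every HG horn lay below every SHAM horn, and also below every HG+ORG horn but replicate 18. Both separations rested on the TMM scaling. In raw counts, Esrp1 had 2456 of 11332447 in HG replicate 15. It had 2664 of 13388570 in SHAM replicate 3 and 2942 of 14206928 in HG+ORG replicate 19, both smaller shares. With all horns the edgeR log2 fold of Esrp1 was -0.51 (SE 0.32, adjusted p = 0.595) for HG over SHAM and 0.29 (SE 0.32, adjusted p = 0.893) for HG+ORG over HG. Without replicate 18 the same folds were -0.51 (SE 0.12, adjusted p = 0.103) and 0.51 (SE 0.12, adjusted p = 0.169). None of the 4 passed 0.05 in edgeR. DESeq2 without replicate 18 called both, with adjusted p = 0.00181 and 0.00227.

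Lsr, the lipolysis-stimulated receptor that builds the corners where 3 cells meet, was the other gene whose HG and SHAM horns did not overlap. It was between 6.31 and 7.05 in SHAM (median 6.45) and between 5.36 and 6.13 in HG (median 5.87). PBS replicates 7 to 11 were at 5.85, 6.46, 6.60, 5.92 and 6.46, and HG+ORG replicates 19 to 23 at 6.36, 6.65, 6.01, 5.79 and 5.83. Both of those groups reached into the HG range. The log2 fold of HG over SHAM was -0.68 (SE 0.35, adjusted p = 0.471), and -0.68 (SE 0.18, adjusted p = 0.104) without replicate 18. Lsr and Esrp1 made 2 of 38 genes with all HG horns below all SHAM horns, against 0.243% of all features. As shares of raw counts, Lsr kept this order and Esrp1 did not. Without replicate 18, Esrp1 and Ovol1 had all HG+ORG horns above all HG horns, against 0.136% of all features. Neither gene kept that as shares of raw counts. Ovol1 had 108 of 11332447 in HG replicate 15 and 118 of 14206928, a smaller share, in HG+ORG replicate 19.

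**Figure D1:**
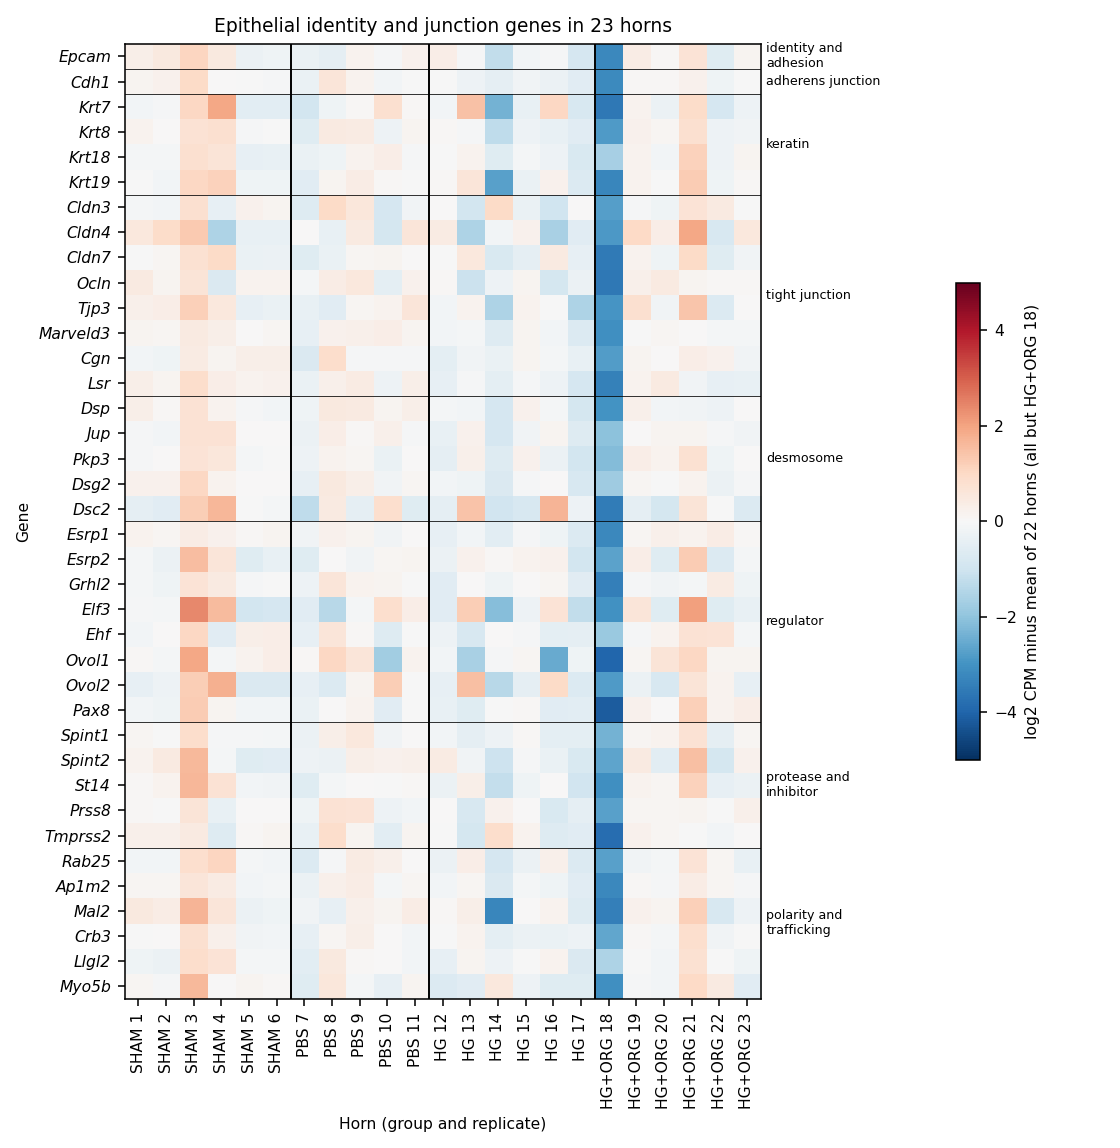
Level of each of the 38 genes (rows, ordered by role) in each of the 23 horns (columns, by group and replicate) as log2 CPM minus that gene's mean over the 22 horns other than HG+ORG replicate 18; red is higher and blue lower. HG+ORG replicate 18 is blue in every row, SHAM replicate 3 is red in nearly all, and HG replicates 14 and 17 are mostly pale blue.

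By edgeR 0 of the 38 genes changed in any of the 6 comparisons between groups or in the test over all 4 groups, and 0.0% of all features did in each of these 7 tests. At an unadjusted p under 0.05 there were 1 of the 38 (Dsg2, HG vs SHAM) and, of all features, 385 for PBS over SHAM, 1996 for HG over SHAM, 597 for HG over PBS, 1754 for HG+ORG over SHAM, 1079 for HG+ORG over PBS, 1737 for HG+ORG over HG and 1786 over any group. In the same order DESeq2 called 1, 281, 0, 83, 0, 162 and 278 features and limma-voom 0 in each, with 0 of the 38 among them in either. What follows on groups is therefore a description of fitted folds, none of which passed in edgeR with the 23 horns.

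In PBS over SHAM the median log2 fold of the 38 genes was -0.25, with 34 below 0, against a median of 0.02 over all features. HG over SHAM gave -0.50 with 38 of 38 below 0, against 0.00, and HG+ORG over SHAM gave -0.34 with 37 below 0, against 0.06. For HG over PBS the values were -0.28, 32 and 0.02, and for HG+ORG over PBS -0.09, 25 and 0.05. HG+ORG over HG was the 1 comparison with most folds above 0, 30 of 38, with a median of 0.13 against 0.04. Its direction was not stable: the median was -0.05 without HG+ORG replicate 21 and -0.07 with limma-voom, and it ran from -0.05 to 0.44 with libraries left out. SHAM replicate 3 weighed on the 3 medians against SHAM, which were -0.04, -0.33 and -0.17 without it. The comparisons share groups, so these counts do not stand independently of each other. The 38 genes as a whole were thus lowest in HG among the groups free of replicate 18, at a mean of 7.26 ± 0.29 log2 CPM (SD, n = 6), against a SHAM mean of 7.77 ± 0.44 (n = 6) and a PBS mean of 7.56 ± 0.25 (n = 5). HG+ORG was at 7.17 ± 1.28 (n = 6), or 7.68 ± 0.36 (n = 5) without replicate 18. As a share of all counts they took 0.833 to 2.13% in 22 horns and 0.120% in replicate 18. In bulk tissue, fewer epithelial cells and less RNA of these genes per cell cannot be told apart.

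Replicate 18 widened the spread that all 4 groups share in the fit, so the same counts were read without it. HG over SHAM then had 18 of the 38 genes below 0 at an unadjusted p under 0.05, where 4.01% of all features were lower at that p. With all horns it was the 1 gene above, against 2.12%, and with HG and SHAM alone in the fit it was 13, against 3.14%. SHAM replicate 3 weighed on this count: without it and replicate 18 there were 7 (Esrp1, Lsr, Marveld3, Dsg2, Krt8, Cdh1 and Ap1m2), against 3.03%, and the median fold of the 38 was -0.34, not -0.51. None passed the adjustment in these 4 fits. DESeq2 without replicate 18 called 5 lower in HG than in SHAM (Esrp1, Lsr, Cdh1, Marveld3 and Dsg2), against 0.515% of all features called lower, and Esrp1 alone, against 0.159%, when SHAM replicate 3 was left out too. HG over PBS without replicate 18 had 4 below 0 at an unadjusted p under 0.05 (Esrp1, Dsp, Marveld3 and Lsr), against 1.98%. Leaving out 1 more library moved that number between 1 (without PBS replicate 8 or HG replicate 17) and 10 (without SHAM replicate 3).

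HG+ORG over HG without replicate 18 had a median log2 fold of 0.34 with 35 of 38 above 0, against 0.01 over all features. Of these, 6 were at an unadjusted p under 0.05, against 2.71%: Esrp1, Pax8, Ehf, Cldn4, Ocln and Pkp3. The number was 2 when HG+ORG replicate 21 was also left out and 9 when replicate 22 was. HG replicates 13 and 16 held the lowest HG levels of Pax8, Ehf, Cldn4 and Ocln. These horns were much alike and may not be separate animals, and no fit took them as 1 library. DESeq2 called 1 of the 38 higher in HG+ORG (Esrp1), against 0.181% of all features called higher, and Esrp1 and Pax8, against 0.319%, when SHAM replicate 3 was left out too. HG+ORG over SHAM and over PBS had medians of -0.14 and 0.12 without replicate 18, with 30 below 0 and 26 above 0. Without SHAM replicate 3 as well, HG+ORG over SHAM was at 0.04, and without HG+ORG replicate 21 instead, HG+ORG over PBS was at -0.08.

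**Figure D2:**
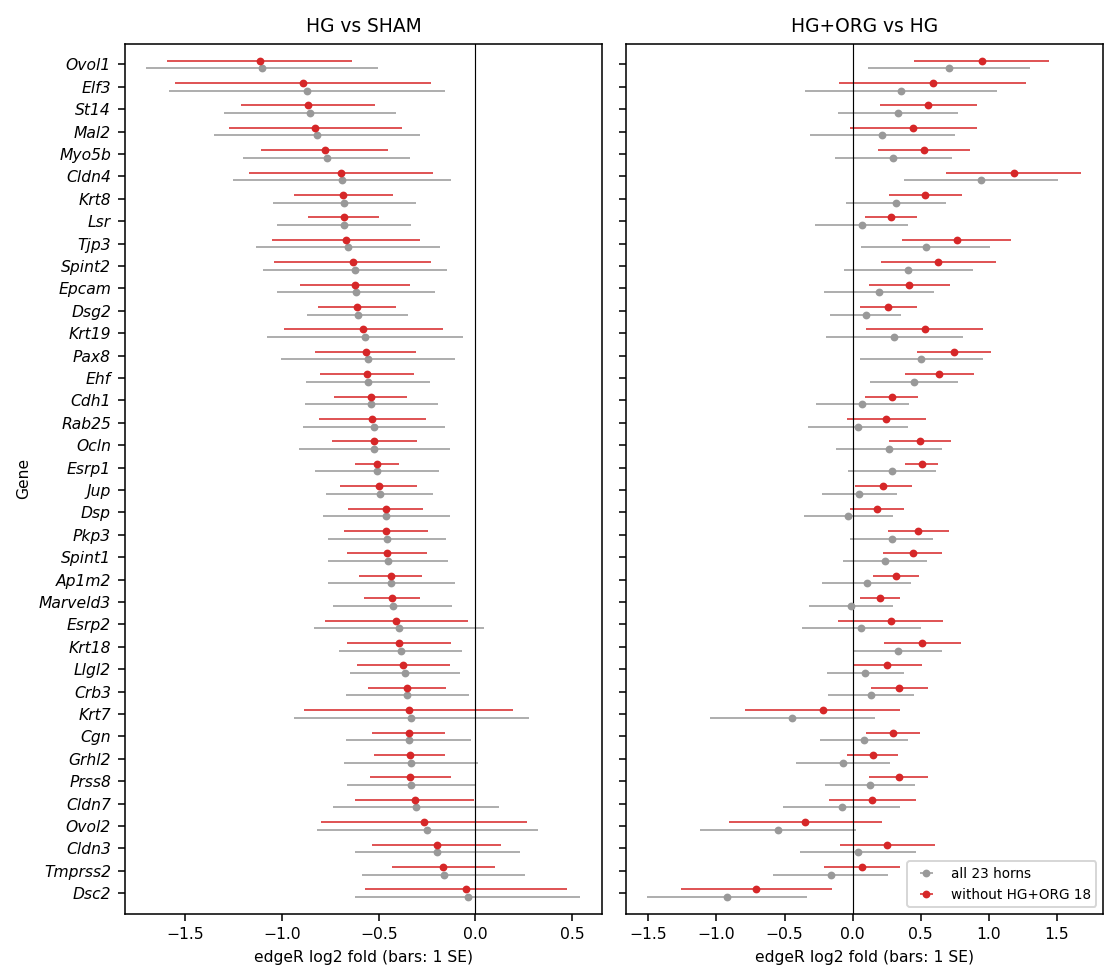
edgeR log2 fold of each of the 38 genes for HG over SHAM (left) and HG+ORG over HG (right), with all 23 horns (grey) and without HG+ORG replicate 18 (red); bars are 1 SE and the vertical line is 0. On the left all 38 points lie below 0, while on the right 30 grey and 35 red points lie above it, and the red bars are shorter.

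Epcam, the adhesion protein of nearly all simple epithelia, was at 10.05 to 11.43 log2 CPM in SHAM (median 10.74). PBS replicates 7 to 11 were at 10.04, 9.91, 10.52, 10.32 and 10.56, HG ran from 9.11 to 10.67 (median 10.27), and HG+ORG replicates 19 to 23 were at 10.72, 10.41, 11.05, 9.75 and 10.49. The 4 groups overlapped, and HG replicates 14 and 17 held the 2 lowest values among these 22 horns. Its log2 fold without replicate 18 was -0.62 (SE 0.29) for HG over SHAM and 0.42 (SE 0.30) for HG+ORG over HG. With all horns the latter was 0.19 (SE 0.41), and it turned to -0.04 without HG+ORG replicate 21 and to -0.14 with limma-voom. The fold of HG over SHAM was -0.43 (SE 0.27) when replicate 18 and SHAM replicate 3 were both left out.

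Cdh1, E-cadherin, varied less. SHAM ran from 10.09 to 11.09 (median 10.22), HG from 9.58 to 10.10 (median 9.87), PBS replicates 7 to 11 were at 9.81, 10.74, 10.32, 9.99 and 10.12, and HG+ORG replicates 19 to 23 at 10.20, 10.20, 10.34, 9.91 and 10.09. SHAM replicate 3 alone set the top of the SHAM range, and the highest HG horn just reached the lowest SHAM horn. The log2 fold of HG over SHAM was -0.54 (SE 0.34, adjusted p = 0.597) with all horns, -0.54 (SE 0.19, adjusted p = 0.159) without replicate 18, and -0.35 (SE 0.16) without SHAM replicate 3 as well.

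Among the keratins, which form the filaments of simple epithelium, Krt7 and Krt19 varied more from horn to horn than Krt8 and Krt18. Krt8 was at 10.23 ± 0.39 (SD, n = 6) among SHAM horns, 9.98 ± 0.45 (n = 5) with PBS, 9.54 ± 0.47 (n = 6) with HG and 10.10 ± 0.42 in HG+ORG without replicate 18 (n = 5). Krt18, its partner, was at 9.24 ± 0.52, 9.15 ± 0.27, 8.90 ± 0.36 and 9.37 ± 0.55 in the same order. Krt19 and Krt7 had SDs of 1.18 and 1.37 in HG, where replicate 14 was at 7.44 and 6.66 and replicate 13 held the highest HG value of both. Krt8 in HG over SHAM had a log2 fold of -0.68 (SE 0.26) without replicate 18.

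Among tight junction genes, Marveld3, a relative of occludin, kept the narrowest range: 5.49 to 5.91 in SHAM (median 5.58), 4.78 to 5.57 in HG (median 5.32), 5.05, 5.68, 5.70, 5.79 and 5.59 in PBS replicates 7 to 11, and 5.45, 5.54, 5.47, 5.37 and 5.36 in HG+ORG replicates 19 to 23. HG replicates 14 and 17 were below all others but replicate 18. Cldn4, a sealing claudin of secretory epithelium, had the widest range of the tight junction genes. It ran from 6.01 to 8.84 in SHAM (median 7.63) and from 5.92 to 7.96 in HG (median 7.20), was 7.58, 7.16, 8.00, 6.68 and 8.16 in PBS replicates 7 to 11, and 8.53, 7.88, 9.46, 6.75 and 8.07 in HG+ORG replicates 19 to 23. Its log2 fold of HG+ORG over HG was 0.95 (SE 0.57, adjusted p = 0.655), and 1.19 (SE 0.50, adjusted p = 0.318) without replicate 18, with the groups overlapping. Ocln, occludin, had 0.27 (SE 0.39) with all horns and 0.50 (SE 0.23) without replicate 18, and the scaffold gene Tjp3 0.54 (SE 0.47) and 0.77 (SE 0.40). Without HG+ORG replicate 21 the fold of Cldn4 was 0.43 and that of Tjp3 0.11. The mean of the 8 tight junction genes was 7.52 ± 0.32 in SHAM, 7.35 ± 0.30 in PBS, 7.02 ± 0.22 in HG and 7.50 ± 0.34 in HG+ORG without replicate 18.

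Of the desmosome genes, Dsg2, a desmosomal cadherin, had the smallest p of the 38 in HG over SHAM with all horns. Dsg2 was between 7.27 and 8.31 in SHAM (median 7.45) and between 6.45 and 7.29 in HG (median 7.10). PBS replicates 7 to 11 were at 6.85, 7.76, 7.57, 7.07 and 7.35, and HG+ORG replicates 19 to 23 at 7.37, 7.26, 7.44, 6.97 and 7.22. Only the top HG horn reached the SHAM range. The log2 fold was -0.61 (SE 0.26, adjusted p = 0.368), and -0.61 (SE 0.20, adjusted p = 0.138) without replicate 18, and it was -0.40 without SHAM replicate 3. Without replicate 18, the plaque genes Dsp, Jup and Pkp3 had -0.46 (SE 0.19), -0.50 (SE 0.20) and -0.46 (SE 0.22). Without SHAM replicate 3 as well they had -0.34 (SE 0.19), -0.39 (SE 0.20) and -0.34 (SE 0.21). With all horns Dsc2, the partner cadherin, was the member with the fold of HG over SHAM nearest 0, at -0.04 (SE 0.58). The mean of the 5 was 7.41 ± 0.43 in SHAM, 7.20 ± 0.33 in PBS, 6.96 ± 0.48 in HG and 7.16 ± 0.21 in HG+ORG without replicate 18.

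The regulators held both the steadiest and the most variable genes of the set. Grhl2, a driver of the epithelial programme, was at 6.76 ± 0.36 in SHAM, 6.77 ± 0.31 in PBS, 6.44 ± 0.30 in HG and 6.61 ± 0.25 in HG+ORG without replicate 18, and had a log2 fold of HG over SHAM of -0.34 (SE 0.18) without that horn and -0.21 (SE 0.18) without SHAM replicate 3 as well. Pax8, a transcription factor of the Müllerian epithelium, ran from 6.82 to 8.33 in SHAM (median 6.93) and from 6.46 to 7.13 in HG (median 6.60), was 6.70, 7.07, 7.24, 6.48 and 7.05 in PBS replicates 7 to 11, and 7.28, 7.06, 8.23, 7.23 and 7.37 in HG+ORG replicates 19 to 23. On the TMM-scaled levels, all of these 5 HG+ORG horns but replicate 20 were above all HG horns. The fold of HG+ORG over HG was 0.51 (SE 0.45, adjusted p = 0.844) with all horns and 0.75 (SE 0.27, adjusted p = 0.229) without replicate 18. It was 0.17 without HG+ORG replicate 21 and turned to -0.05 with limma-voom. Ehf, an ETS factor of epithelium, had 0.45 (SE 0.32) and 0.64 (SE 0.25), and 0.27 without replicate 21.

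Ovol1, a zinc finger repressor of the mesenchymal state, was low in all horns. It ran from 2.94 to 5.01 in SHAM (median 3.16) and from 0.53 to 3.15 in HG (median 2.88), was 3.10, 4.09, 3.68, 1.31 and 3.24 in PBS replicates 7 to 11, and 3.16, 3.71, 4.08, 3.21 and 3.20 in HG+ORG replicates 19 to 23. Those 5 HG+ORG horns lay just above the 6 HG horns on the TMM-scaled levels, but not as shares of raw counts. HG replicates 13 and 16 and PBS replicate 10 were far below the rest, with only 37, 11 and 27 counts. The other HG horns were at 2.84 to 3.15, and HG replicates 13 and 16 may not be separate animals. The fold of HG+ORG over HG was 0.71 (SE 0.60, adjusted p = 0.828), and 0.95 (SE 0.49, adjusted p = 0.475) without replicate 18, and 0.45 without replicate 21. Elf3, an ETS factor induced in stressed and differentiating epithelium, had the largest SD of the 38 over 22 horns (1.12), from 6.93 in HG replicate 14 to 11.47 in SHAM replicate 3, and group means of 9.41 ± 1.35, 8.90 ± 0.85, 8.70 ± 1.23 and 9.29 ± 1.14 in SHAM, PBS, HG and HG+ORG without replicate 18.

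St14 (matriptase), a membrane protease that Spint1 and Spint2 inhibit, was at 9.48 ± 0.71 (SD, n = 6) among SHAM horns, 8.97 ± 0.28 (n = 5) with PBS, 8.71 ± 0.56 (n = 6) with HG and 9.24 ± 0.63 in HG+ORG without replicate 18 (n = 5). Its log2 fold was -0.86 (SE 0.44, adjusted p = 0.480) for HG over SHAM and -0.66 (SE 0.47, adjusted p = 1.00) for PBS over SHAM, and without SHAM replicate 3 these were -0.47 and -0.28. The inhibitor Spint1 had -0.46 (SE 0.21) and Spint2 -0.64 (SE 0.40) for HG over SHAM without replicate 18. The protease and both inhibitors had folds below 0, as all 38 genes did in that comparison. Without SHAM replicate 3 as well, Spint1 was at -0.25 (SE 0.17) and Spint2 at -0.17 (SE 0.34). Of the polarity and trafficking genes, Ap1m2, the adaptor that sorts proteins to the basolateral side, had -0.44 (SE 0.16), Myo5b -0.78 (SE 0.33) and Crb3, a determinant of the apical side, -0.35 (SE 0.20). Without SHAM replicate 3 as well, Myo5b was at -0.36 (SE 0.26) and Crb3 at -0.18 (SE 0.17). The mean of these 6 genes was 7.15 ± 0.47 in SHAM, 6.91 ± 0.27 in PBS, 6.61 ± 0.34 in HG and 7.00 ± 0.41 in HG+ORG without replicate 18.

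Other lists outside the 38, of junction and polarity genes, epithelial regulators and epithelial cell types, did not all lie on the same side. Of 36 other junction and polarity genes, 34 had folds below 0 in HG over SHAM (median -0.31), and 0 passed. At an unadjusted p under 0.05, 2 of the 36 were lower with all horns and 10 without replicate 18, beside the shares of all features given above (2.12% and 4.01%). Among the 10 were Ctnnb1, beta-catenin (-0.50, SE 0.19), F11r, a junction adhesion molecule (-0.40, SE 0.17), and Pkp2, a desmosome plaque gene (-0.65, SE 0.27). The count of 10 was not made without SHAM replicate 3, which weighed on the count for the 38 genes. Of 10 other epithelial regulators 10 were below 0 (median -0.37), among them Klf5 (-0.57, SE 0.26 without replicate 18). Luminal genes were below 0 for 5 of 6 (median -0.41), gland genes for 2 of 4 (median -0.03), and 5 of 5 ciliated genes were above 0 (median 0.36).

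In HG+ORG over HG with all horns, 21 of the 36 junction genes (median 0.04) and 8 of the 10 regulators (median 0.37) were above 0. Without replicate 18 the counts were 30 (median 0.18) and 10 (median 0.50), with 0 passing, Klf5 at 0.75 (SE 0.27) and the kidney and Müllerian factor Pax2 at 0.66 (SE 0.25). Gland genes were above 0 for 2 of 4 and ciliated genes for 2 of 5 in that fit.

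Lists of stroma, muscle and vessel genes had folds on the other side of 0, while immune lists were mixed. In HG over SHAM, 13 of 13 mesenchymal genes had folds above 0 (median 2.60), and so did 11 of 11 stroma genes (2.83), 10 of 10 smooth muscle genes (3.90) and 7 of 7 endothelial genes (2.95), none of them past the threshold. Macrophage genes were above 0 for 8 of 9 (median 1.17) and neutrophil genes below 0 for 4 of 5 (median -1.43), the latter on the side of the 38. In HG+ORG over HG 9 of the 13 mesenchymal genes were below 0 with all horns (median -0.51). Without replicate 18 the 13 were all below 0 (median -2.67), Snai2 at -3.62 (SE 0.99) and Zeb1 at -3.25 (SE 1.01). Macrophage genes (7 of 9, median 0.29) and neutrophil genes (4 of 5, median 1.71) were above 0 there, as the 38 were. The mean of the mesenchymal genes ran from 1.90 to 3.90 in SHAM, 0.77 to 5.14 in PBS, 2.72 to 6.00 in HG and 1.69 to 3.74 in HG+ORG without replicate 18. Levels are relative to the rest of a library after TMM scaling, so more RNA from such cells can lower the levels of the 38 genes. Its part in the folds was not tested.

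Over the 22 horns the mean of the 38 genes and that of the mesenchymal genes had r = -0.58 and rho = -0.72, and r = -0.39 without the 2 horns farthest from the median mesenchymal level. For endothelium the values were -0.54, -0.64 and -0.53, for stroma -0.51, -0.64 and -0.41, and for the other junction genes 0.61, 0.65 and 0.36. The epithelial lists did not share a sign: gland genes had -0.50, -0.53 and -0.54, ciliated genes -0.47, -0.43 and -0.13, luminal genes 0.03, 0.21 and -0.04, and the other regulators 0.54, 0.64 and 0.45. These describe horns of 4 groups that share library composition. PBS replicates 8 and 9, with mesenchymal means of 0.85 and 0.77, had means of the 38 genes of 7.73 and 7.78, while HG replicates 14 and 17, at 6.00 and 5.72, had 6.86 and 6.92. HG replicates 13 and 16 had mesenchymal means of 5.27 and 5.32 with 7.52 and 7.39 for the 38 genes, inside the SHAM range or just under it.

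**Figure D3:**
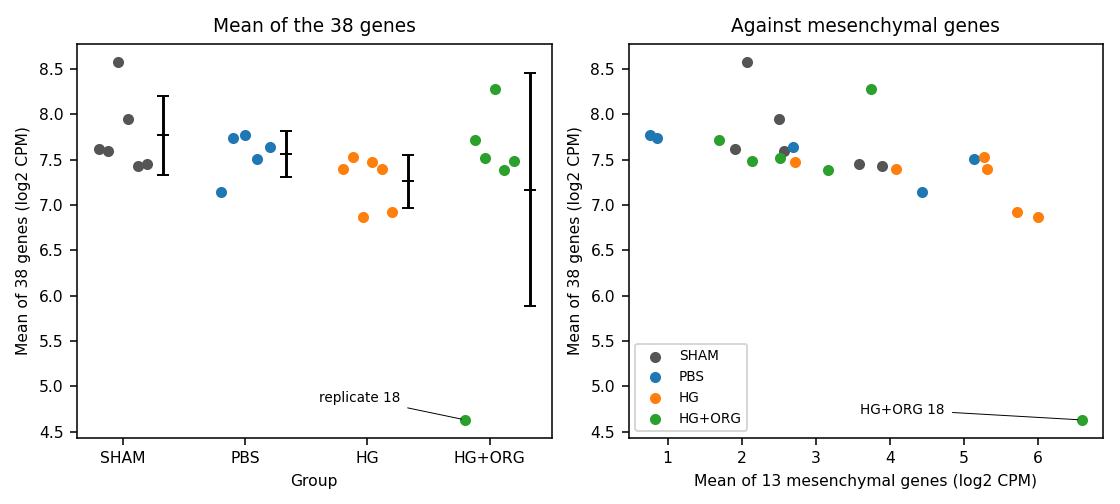
Mean of the 38 genes (log2 CPM) in each horn by group, with the group mean and SD as a bar beside the points (left), and the same mean against the mean of 13 mesenchymal genes (log2 CPM) in each horn (right). The 22 horns lie between 6.86 and 8.58, and HG+ORG replicate 18 lies at 4.63 with the highest mesenchymal mean, 6.59.

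HG+ORG replicate 18 was the lowest of the 23 horns for 38 of 38 genes, as it was for 21.6% of all features. The median difference from the mean of the other 5 HG+ORG horns was -3.21 log2 units for the 38 genes and -0.04 for all features. The difference was uneven among the genes. Pax8 was 23.6-fold lower (2.88 log2 CPM, the other 5 at 7.06 to 8.23), the protease Tmprss2 14.3-fold and Ocln 13.5-fold. Ovol1 was at -0.92, against 3.16 to 4.08, but had 3 counts in this horn, so no fold is given. At the other end the polarity gene Llgl2 was 3.07-fold lower (5.26, against 6.61 to 7.56), Dsg2 3.37-fold, Krt18 3.66-fold, the plaque gene Jup 4.15-fold and Ehf 4.40-fold. By role the median difference was -3.32 for regulators, -3.26 for tight junction genes, -3.24 for keratins, -2.99 for polarity and trafficking, -2.81 for proteases and inhibitors and -2.37 for desmosomes.

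In that horn 9 macrophage genes averaged 9.54 log2 CPM, against at most 6.43 in any other, and 5 neutrophil genes 8.56, against at most 5.34. Lyz2, a lysozyme of myeloid cells, was at 13.89 and Vim, the mesenchymal filament, at 12.62, the latter at most 9.45 elsewhere. The 6 luminal genes averaged 4.53 and the 4 gland genes 3.38, the latter within the range of the other horns (2.98 to 6.47). The part of these cells in the drop was not tested.

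**Figure D4:**
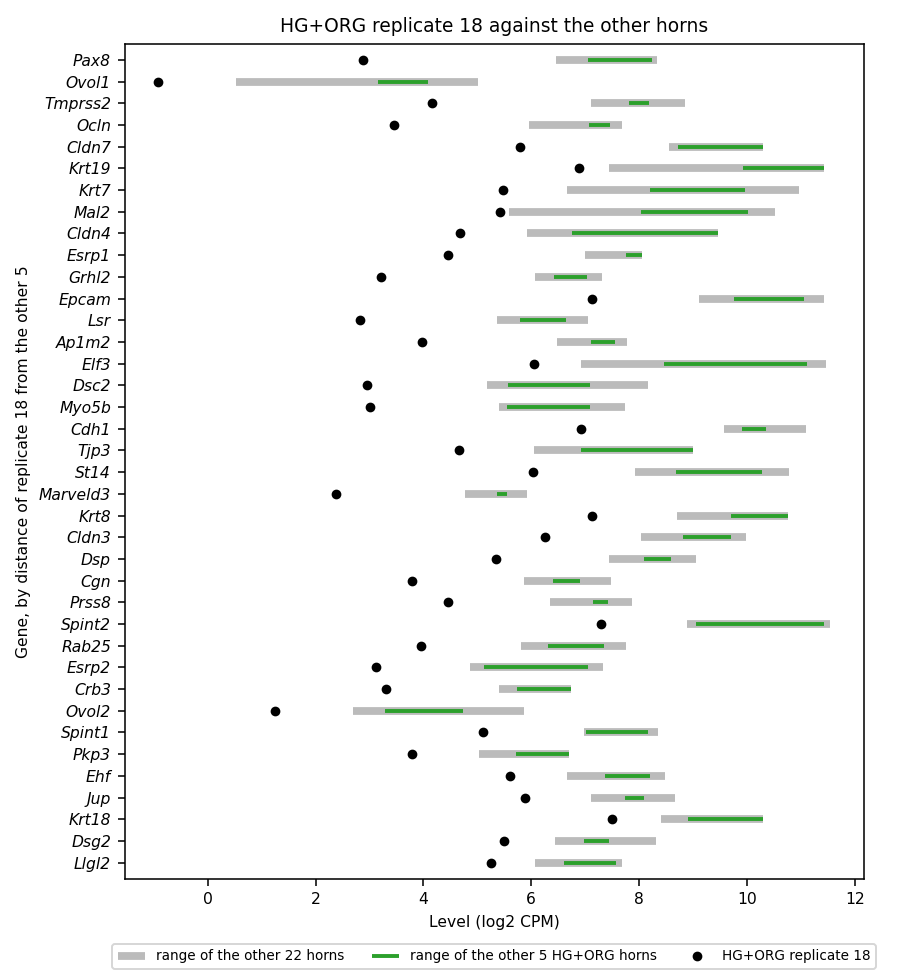
Level (log2 CPM) of each of the 38 genes in HG+ORG replicate 18 (black points), the range of the other 5 HG+ORG horns (green) and the range of the other 22 horns (grey), ordered by the distance of replicate 18 from the mean of the other 5. Each black point lies left of its grey bar, nearest to it for Mal2, where HG replicate 14 was at 5.58.

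Apart from that horn, the 38 genes varied about as much as other features, with a median SD over 22 horns of 0.475 against 0.499 for all features. With it the medians were 0.800 and 0.558. Within groups the median SD of the 38 was 0.508 in SHAM, 0.351 in PBS, 0.466 in HG and 1.37 in HG+ORG, or 0.407 without replicate 18. SHAM replicate 3 was the highest of the 22 horns for 20 of the genes and HG+ORG replicate 21 for 8. HG replicate 14 was the lowest for 15 and HG replicate 17 for 11.

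Most of the genes followed the set from horn to horn. Of 703 pairs, 409 had r above 0.5 over 22 horns, with a median of 0.57, and 51 had r below 0. With replicate 18 the median was 0.81 and 660 pairs were above 0.5, so that 1 horn raised most of these values. The genes closest to the mean of the other 37 were St14 (r = 0.96, rho = 0.85), Ap1m2 (0.93 and 0.91) and Crb3 (0.91 and 0.86) over 22 horns. Their r without the 2 horns farthest from the median was 0.91, 0.95 and 0.81. The closest pairs were Cdh1 with Dsg2 (r = 0.94) and Epcam with Tjp3 (0.93). Tmprss2 (r = 0.10, rho = 0.22), Cldn3 (0.21 and 0.10) and Ocln (0.32 and 0.49) followed least.

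To see how the genes parted from each other, each was expressed as its difference from the mean of the 38 in the same horn, centred over the 22 horns (its relative level). The relative level varied most for Elf3, Ovol1 and Cldn4, with SDs of 0.85, 0.84 and 0.83, and least for Ap1m2 (0.14), Crb3 (0.16) and Dsg2 (0.18). Within that spread, 4 horns from 3 groups (SHAM replicate 4, PBS replicate 10, HG replicates 13 and 16) shared a pattern that was noticed after the values were seen, and no test is given for it. HG replicates 13 and 16 were the most alike pair after 2 SHAM pairs, with a mean chi-square of 21.7 per feature, and may not be separate animals. In these horns, in that order, the relative level of Krt7 was 1.53, 0.85, 1.5 and 1.20, and it was at most 0.21 in the other 18. Dsc2 was at 1.266, 0.88, 1.45 and 1.88, against at most 0.39, and Ovol2, a relative of Ovol1, at 1.40, 1.29, 1.54 and 1.12, against at most 0.35.

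The opposite held for several tight junction and regulator genes there. Cldn4 was at -1.92, -0.81, -1.49 and -1.46, against -0.63 or more in the other 18, Cldn3 at -0.78, -0.77, -0.90 and -0.82, against -0.26 or more, and Ovol1 at -0.48, -1.70, -1.57 and -2.36, against -0.14 or more. Ovol1 and Ovol2, the paired zinc finger repressors, thus went apart in these 4 horns. The levels of Ovol1 there rest on few counts, 62, 27, 37 and 11 in the same order. SHAM replicate 4 and HG replicate 16 were also the smallest libraries, with totals of 7920918 and 8259351. The pairs with the lowest r over 22 horns were Ovol2 with Tmprss2 (-0.62), Krt7 with Tmprss2 (-0.53) and Ocln with Dsc2 (-0.52). Elf3 was high there too (1.18, 0.89, 1.271 and 0.85) but also in SHAM replicate 3 and HG+ORG replicate 21 (1.38 and 1.32).

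Cldn1 parted these horns from the rest as well, and other genes did so only in part. Cldn1, a sealing claudin outside the 38, was at 1.52, 3.39, 1.38 and 1.25 log2 CPM in the same 4 horns, at 4.34 to 5.02 in SHAM replicate 3, HG replicate 14 and HG+ORG replicate 21, at 4.56 in replicate 18, and at 6.72 or more in the rest. The luminal gene Calb1 was at 3.84, 5.54, 4.5 and 5.34, with SHAM replicate 3 and replicate 18 at 4.03 and 4.00. The luminal mean was 6.95, 6.91, 6.90 and 6.66, just under the 7.01 of HG replicate 14, and it was 7.76 or more in the other 17. The gland mean was 2.98, 3.98, 3.40 and 3.27, and SHAM replicate 3 (3.38) and PBS replicate 11 (3.81) lay within that range. Mesothelium genes, from the outer lining of the uterus, averaged 2.71, 1.85, 4.81 and 4.38 in them, against -0.81 to 3.93 in the other 18. Smooth muscle means were 2.29, 6.45, 6.01 and 7.38. The 4 horns were mixed in muscle and mesothelium, and the part of other cells in the pattern was not tested.

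**Figure D5:**
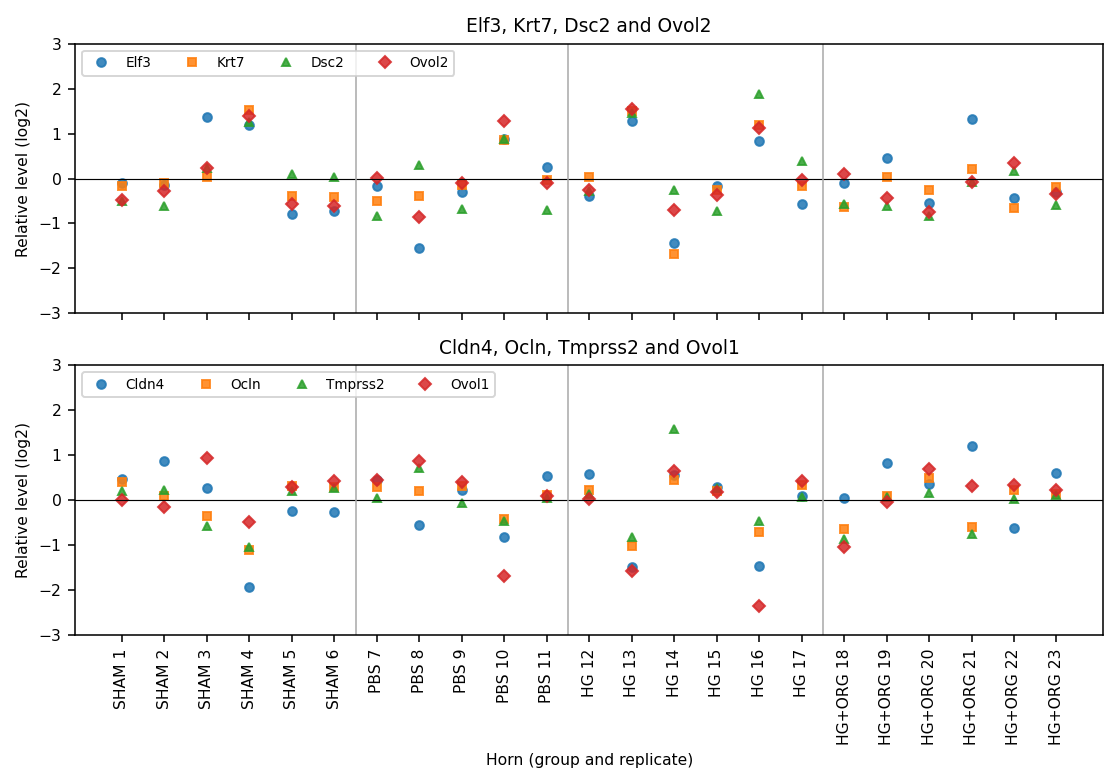
Relative level (log2 units: difference from the mean of the 38 genes in the same horn, centred over 22 horns) of Elf3, Krt7, Dsc2 and Ovol2 (top) and of Cldn4, Ocln, Tmprss2 and Ovol1 (bottom) in each of the 23 horns, with vertical lines between groups. In SHAM replicate 4, PBS replicate 10 and HG replicates 13 and 16 the 4 genes of the top panel have values over 0 and the 4 of the bottom panel have values under it.

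HG replicate 14 parted from the rest in another way. Its Mal2, a protein of apical transport, was at 5.58 log2 CPM against 8.2 to 9.13 in the other HG horns, its Krt19 at 7.44 and its Krt7 at 6.66, while Cldn3 (9.97) and Tmprss2 (8.86) were at or near the top of the 22 horns. The gap junction gene Gjb2 was at 3.78 in it and at 7.66 or more in the other 21 of those horns. SHAM replicate 3 and HG+ORG replicate 21, which led most of the 38 genes, had Elf3 at 11.47 and 11.11 and Spint2 at 11.54 and 11.42, and the secretory luminal gene Sprr2f at 13.43 and 13.73, against at most 10.89 in the other 20.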

How the data were processed

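Whole-number read counts per gene were deposited by the authors in 1 table, not normalized. The submitters' processing notes name HISAT2 2.2.1 and GRCm39, featureCounts 2.0.3, Trimmomatic 0.39, SAMtools 1.21, FastQC 0.11.9, MultiQC 1.27.1, DESeq2 1.42.1 and R 4.3.1. How strand was treated in counting is not stated there, so reads of overlapping or antisense genes may be shared. Totals ran from 7920918 to 14902952 counts (median 12701407), and mitochondrially encoded genes took 1.5 to 11.4%.

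Counts were fitted with edgeR 4.0.16 (quasi-likelihood test, TMM, filterByExpr by group, 974 features removed, R 4.3.3), all 4 groups in 1 fit with no covariates, and p-values were adjusted by Benjamini-Hochberg over all features at 0.05. SEs were computed as |log2 fold| / sqrt(F). Levels are log2 CPM after TMM with a prior count of 2 (floor -2.66). Alternatives were DESeq2 1.42.0, limma 3.58.1, other scaling and filters, 2 groups alone and each library left out. The scripts' tests were checked on simulated data. The 38 genes, the other gene lists and the naming rule were chosen with earlier results of these data known. By that rule folds are given for Epcam, Cdh1, Grhl2 and Pax8 and for the genes with the smallest p of a comparison, and genes are named for the widest and narrowest relative spread and for the highest and lowest correlation with the rest. Other genes and folds given were chosen after their values were seen.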

Additional observations from a re-analysis of the deposited data

Results flagged for a closer look

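In each group of 5 or 6 horns, a level was marked when the gap between the highest or lowest horn and its neighbour took more of the group's range than Dixon's test allows at 95%. Over 152 such groups of the 38 genes, chance would mark about 1 in 20.

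HG+ORG replicate 18 was marked as low for 26 of the 38 genes in its group, and for their mean, at 4.63 log2 CPM with the other 5 horns between 7.39 and 8.27. The marked levels in log2 CPM were Epcam 7.13, Cdh1 6.93, Krt8 7.12, Krt19 6.89, Cldn3 6.25, Cldn7 5.79, Ocln 3.45, Marveld3 2.39, Cgn 3.80, Lsr 2.83, Dsp 5.34, Jup 5.89, Pkp3 3.78, Dsg2 5.502, Dsc2 2.95, Esrp1 4.46, Grhl2 3.22, Ehf 5.61, Ovol1 -0.92, Pax8 2.88, St14 6.04, Prss8 4.46, Tmprss2 4.16, Rab25 3.96, Ap1m2 3.97, Crb3 3.31. The other 12 genes were also lowest in that horn.

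SHAM replicate 3 was marked as high for 7 genes. Cdh1 was at 11.09 with the other 5 SHAM horns at 10.09 to 10.36, Lsr at 7.05, Dsg2 at 8.31, Ovol1 at 5.01, Pax8 at 8.33, Spint1 at 8.35 and Myo5b at 7.74. SHAM replicate 4 was marked as low for Tmprss2, at 7.31 with the others at 8.03 to 8.40. PBS replicate 7 was low for Marveld3 (5.05) and St14 (8.49), and HG replicate 14 for Mal2 (5.58).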

How the results depend on the processing

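The direction of the median fold of the 38 genes in HG over SHAM was below 0 in each alternative run, and edgeR with other scaling, without the low-count filter or with robust spread, and limma-voom, called 0 of them in each comparison. Counts of all features called moved by tool. DESeq2 called 1 for PBS vs SHAM, 281 for HG vs SHAM, 83 for HG+ORG vs SHAM, 162 for HG+ORG vs HG and 278 over any group. By edgeR, HG and SHAM alone in the fit gave 386 features, with none of the 38 genes among them. Without HG+ORG replicate 18, DESeq2 called 1, 943, 699 and 697 for PBS vs SHAM, HG vs SHAM, HG+ORG vs HG and any group, with 5, 1 and 1 of the 38 genes in the last 3. These and the next settings were chosen after seeing the data. With SHAM replicates 5 and 6 also summed as 1 library, the last 3 counts were 914, 610 and 609, with 5, 1 and 1 of the 38. With SHAM replicate 3 left out instead they were 542, 751 and 492, with 1, 2 and 1 of the 38. The cause was not tested.

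Leaving out 1 library, alone or with HG+ORG replicate 18, gave 0 to 329 features called for HG vs SHAM and 0 to 1 of the 38 genes (the highest of each without HG replicate 15 and replicate 18, when Esrp1 was called), 0 to 1 features for HG+ORG vs HG (1 without PBS replicate 10) and 0 to 39 over any group (39 without HG+ORG replicate 22).

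Some folds changed sign, among them Pax8 in HG+ORG over PBS and over HG, which were 0.31 and 0.51 with all horns. The log2 fold of Grhl2 in PBS over SHAM, 0.001 with all horns, was -0.021 with RLE scaling and with DESeq2, -0.015 with the 2 groups alone, -0.020 and -0.003 with DESeq2 and limma-voom without replicate 18, and -0.062, -0.068 and -0.063 with SHAM replicates 5 and 6 summed (all horns, without replicate 18, and that with DESeq2). It ran from -0.144 to 0.136 with libraries left out. That of Cdh1 was 0.020 with DESeq2 without HG+ORG replicate 18 and SHAM replicate 3, and -0.328 to 0.040 with libraries left out. Pax8 in HG+ORG over SHAM was 0.173 and 0.235 with DESeq2 and limma-voom without replicate 18, 0.109 and 0.104 with SHAM replicates 5 and 6 also summed (edgeR and DESeq2), 0.516 without SHAM replicate 3 as well, and -0.396 to 0.502 with libraries left out. In HG+ORG over PBS with limma-voom, Epcam was -0.384 and Pax8 -0.241. With libraries left out Epcam ran from -0.202 to 0.397, Pax8 from -0.007 to 0.657 and Cdh1 from -0.413 to 0.073. In HG+ORG over HG with limma-voom, Epcam was -0.141, Cdh1 -0.271 and Pax8 -0.048. With libraries left out Epcam ran from -0.039 to 0.575 and Cdh1 from -0.054 to 0.359. Grhl2 there was 0.156 and 0.155 with DESeq2 and limma-voom without replicate 18, 0.147 and 0.156 with SHAM replicates 5 and 6 also summed (edgeR and DESeq2), 0.157 without SHAM replicate 3 as well, and -0.246 to 0.208 with libraries left out.

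No paired analysis was possible because the labels do not tie horns to animals.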
